A study of Mus musculus with 4 samples.

Results

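The glucocorticoid receptor gene *Nr3c1* and 6 genes that control or answer its signal were followed through the open chromatin of inguinal white adipose tissue (iWAT) of mice. The other genes were *Hsd11b1*, *Fkbp5*, *Tsc22d3*, *Zbtb16*, *Sgk1* and *Dusp1*. They were taken by name as members of the pathway, with earlier results of these data known. They make up 7 of the 17196 protein-coding genes that hold a peak. Each gene was given the peaks on its body and the 2000 bases upstream of it, which came to 200 of the 189598 peaks of the series.

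Single-nucleus ATAC-seq cuts open chromatin with the Tn5 transposase and assigns each read to a nucleus and a mouse through combinatorial barcodes. Nuclei came from iWAT of 21 male C57BL/6J mice aged 8 weeks, with 3 mice in each of 7 groups. The day0RT mice were kept at room temperature (22 °C), the day1C, day3C and day7C mice were in the cold (6.5 °C by the sample labels) for 1, 3 or 7 days, and the day1CL, day3CL and day7CL mice stayed at room temperature and were given the selective β3-adrenergic agonist CL-316,243 (CL) at 1 mg/kg for 1, 3 or 7 days. The authors sorted the nuclei into 12 clusters, of which the white adipocytes (5935 nuclei) and the beige adipocytes (1069 nuclei) are compared here.

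Glucocorticoids are steroid hormones of the adrenal cortex. Inside adipocytes the enzyme made from *Hsd11b1* regenerates the active hormone from its inert keto form, and the hormone then moves the receptor, held in the cytoplasm by a chaperone complex, into the nucleus. There the receptor binds pairs of inverted half-sites as a dimer and switches on genes such as *Fkbp5*, a chaperone partner that lowers the affinity of the receptor for its ligand, and in fat tissue the hormone is known to favour adipogenesis and to restrain thermogenesis.

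Every entry of the deposited matrix is 0 or 1, so a count tells in how many nuclei a peak was hit. Counts were summed per mouse and cluster, and a gene's level is given in CPM, its share of all counts on genes scaled to 1000000. The 21 white libraries held 23 to 847 nuclei and 44198 to 3655538 counts, and the 19 beige libraries with at least 10 nuclei held 12 to 107 nuclei and 19550 to 717044 counts. The median nucleus had 2561 counts in the white and 3087 in the beige cluster, and a level in bulk sums of nuclei cannot tell fewer open nuclei from fewer reads per nucleus. Only replicate 3 of day1CL gave a usable beige library. Lymphocytes made up 11.9% to 90.8% of the nuclei of a mouse, with the lowest shares in day1CL replicate 3 and day3CL replicate 2. The beige markers *Ucp1* (54.9 CPM in beige, 5.60 CPM in white) and *Cidea* (119 and 51.9 CPM) were highest in the beige cluster, whereas *Ppargc1a* was highest in the cluster annotated VSMC, which also held the highest level of all 4 skeletal muscle markers examined, while *Acta2*, *Myh11* and *Tagln* of smooth muscle were highest in APC2. This cluster is therefore called by its annotation only. The same barcode sequence occurred in more than 1 mouse for 8739 of the 32552 nuclei, and the mouse tag in the barcode was relied on to separate them.

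The receptor's DNA element is an inverted repeat of a 6-base half-site with a 3-base spacer. The strict form, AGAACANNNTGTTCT, reads the same on both strands and occurred in 3 of the 200 peaks of the 7 genes (1.5%) and in 67 of all 189598 peaks (0.04%). The relaxed form, GNACANNNTGTNC, lies inside the strict one, reads the same on both strands too and occurred in 19 of the 200 peaks (9.5%) against 2870 of all peaks (1.51%). In a fixed window of 500 bases around each peak's centre, which reaches past the ends of shorter peaks, the shares of the relaxed form were 7.0% and 1.46%. The strict form occurred in 1 of the 200 windows (0.5%) against 0.03% of all. A match is a match of letters and not a measured site of binding. The 3 strict matches are shown first, followed by relaxed matches in peaks that the comparisons below turn on and 1 match each from *Dusp1* and *Hsd11b1*. Capitals mark the element, all sequences are the plus strand of mm10, and 5 bases are shown on either side.
Fkbp5 chr17:28420321-28420335 (strict): agcacAGAACACCCTGTTCTgaatg
Fkbp5 chr17:28442419-28442433 (strict): agcctAGAACAAGCTGTTCTcaaac
Sgk1 chr10:21993701-21993715 (strict): cggaaAGAACAGAATGTTCTcggag
Fkbp5 chr17:28439548-28439560 (relaxed): tcaccGCACAAGTTGTACaaagc
Fkbp5 chr17:28518180-28518192 (relaxed): ggctgGAACACAATGTCCcgggc
Zbtb16 chr9:48736508-48736520 (relaxed): ggagaGCACACAGTGTACtgtac
Dusp1 chr17:26535329-26535341 (relaxed): gcgctGAACATTCTGTTCccttt
Hsd11b1 chr1:193227653-193227665 (relaxed): aaatgGGACAGAATGTGCgatta

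The relaxed element occurred in 8 of the 35 *Fkbp5* peaks and 6 of the 59 *Zbtb16* peaks, in 2 of 23 for *Sgk1*, 2 of 19 for *Dusp1* and 1 of 19 for *Hsd11b1*. None of the 23 *Nr3c1* peaks or the 22 *Tsc22d3* peaks held these letters. In the RefSeq promoters of GRCm38, 300 bases each, the strict form occurred in 3 of 32851 and the relaxed form in 156 (0.47%). Of the 6 *Sgk1* promoters listed, 1 holds the strict form. The element lies 175 to 189 bases before this transcript start, as the 250 bases upstream of the start show (chr10:21993640-21993889, plus strand, element in capitals).
Sgk1 promoter: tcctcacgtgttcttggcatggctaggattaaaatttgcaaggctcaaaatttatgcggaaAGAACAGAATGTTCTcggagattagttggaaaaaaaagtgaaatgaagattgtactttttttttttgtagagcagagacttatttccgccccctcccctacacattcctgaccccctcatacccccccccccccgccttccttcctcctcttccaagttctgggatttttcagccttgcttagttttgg

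White and beige adipocytes were compared first, over all 7 groups with the group in the model. Of the 7 genes, 4 passed the threshold and all 4 were less accessible in beige adipocytes: *Fkbp5*, *Tsc22d3*, *Zbtb16* and *Sgk1*. Among all 12770 genes tested, 28.8% passed, of which 1735 were higher and 1939 lower in beige. The median log2 difference of the 7 genes, beige over white, was −0.21, and that of all genes was 0.01. Without day1C replicate 1 or without day3C replicate 1, 2 of the 7 passed instead of 4. The clusters were built by the authors from the same matrix, so this comparison does not stand apart from how the nuclei were sorted. The 7 genes were also chosen with earlier results of these data known, so 4 of 7 beside 28.8% is a description.

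*Nr3c1* (ENSMUSG00000024431), the receptor itself, lies on the minus strand of chromosome 18 from 39410545 to 39519421 and holds 23 peaks. White libraries ranged from 130 to 290 CPM (median 190) and beige libraries from 0 to 270 CPM (median 163). The beige library of day0RT replicate 2 had no count in *Nr3c1*, but it held only 12 nuclei, and 3 counts in it would equal 186 CPM. The gene was lower in beige in 16 of 19 mice, by 0.18 on the log2 scale (log2 fold change −0.18, SE 0.07), and missed the threshold (adjusted p = 0.0545). With the mouse as a block the difference was −0.19 and passed it (adjusted p = 0.0472), as it did in DESeq2 (adjusted p = 0.0408) and without day0RT replicate 1 (adjusted p = 0.0358) or day1CL replicate 2 (adjusted p = 0.0483). It passed too without a filter on low counts (0.0319), with libraries of at least 30 nuclei (0.0498) and without group day0RT (0.0224). The remaining refits did not pass. Of 15 settings other than leaving out 1 mouse, 5 changed the call, and over these 15 the difference shrank to −0.07 and adjusted p reached 0.506. With 1 mouse left out at a time, adjusted p reached 0.184 over 21 refits.

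*Hsd11b1* (ENSMUSG00000016194), which makes active hormone inside the cell, lies on the minus strand of chromosome 1 from 193221634 to 193264075. All of its 19 peaks also lie in *Lamb3*, which covers it on the other strand, so its values cannot be told apart from those of *Lamb3*. It had 159 to 259 CPM in white libraries (median 219) and 148 to 371 CPM in beige libraries (median 241), and beige was higher in 11 of 19 mice. The difference of 0.04 on the log2 scale (SE 0.07, adjusted p = 0.728) was smaller than its error.

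*Fkbp5* (ENSMUSG00000024222) encodes the chaperone partner that feeds back on the receptor and lies on the minus strand of chromosome 17 from 28399094 to 28517527, with 35 peaks. It showed the clearest difference of the 7 genes. White libraries ranged from 145 to 748 CPM (median 474) and beige libraries from 136 to 633 CPM (median 319). The ranges overlapped, but within mice beige was the lower of both clusters in 17 of 19. The fold change was 0.697, or −0.52 on the log2 scale (SE 0.09, adjusted p = 4.07e-07), and it passed under every alternative tried.

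The 4 remaining genes are targets that carry the hormone's effects. *Tsc22d3* (ENSMUSG00000031431), which encodes the anti-inflammatory leucine zipper protein GILZ, lies on the minus strand of chromosome X from 140539528 to 140600659 and holds 22 peaks. White libraries had 171 to 290 CPM (median 251) and beige libraries 99.6 to 295 CPM (median 199). It was lower in beige in 16 of 19 mice, by 0.28 on the log2 scale (log2 fold change −0.28, SE 0.07, adjusted p = 0.00117). With the peaks near the gene start alone it missed the threshold (−0.38, adjusted p = 0.0514).

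*Zbtb16* (ENSMUSG00000066687), encoding the zinc finger repressor PLZF, lies on the minus strand of chromosome 9 from 48654297 to 48836222 and holds 59 peaks. White libraries had 464 to 1314 CPM (median 758) and beige libraries 381 to 1304 CPM (median 658). Beige was lower in 15 of 19 mice, with a log2 fold change of −0.21 (SE 0.07, adjusted p = 0.0175). The call was lost in DESeq2 (−0.24, adjusted p = 0.108), without day1C replicate 1 (adjusted p = 0.0567) and without day3C replicate 1 (adjusted p = 0.0822). It was lost too with libraries of at least 30 nuclei (0.0794), with nuclei of at least 2000 counts (0.0549) and without group day1C (0.0917) or day3C (0.0921).

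*Sgk1* (ENSMUSG00000019970), a kinase that adjusts ion transport, lies on the plus strand of chromosome 10 from 21882184 to 21999903 and holds 23 peaks. It had 88.9 to 178 CPM in white libraries (median 123) and 0 to 171 CPM in beige libraries (median 106), the 0 again in the beige library of 12 nuclei. Beige was lower in 13 of 19 mice, with a log2 fold change of −0.24 (SE 0.09, adjusted p = 0.0329). This call was lost when any one of 10 mice was left out, with adjusted p from 0.0509 to 0.132: day0RT replicate 3, day1C replicates 1 and 3, day3C replicates 1 and 2, day7C replicates 1 and 2, day3CL replicates 2 and 3, and day7CL replicate 3. It was lost too with libraries of at least 30 nuclei (0.0938), with nuclei of at least 2000 counts (0.126) and without group day0RT (0.0510), day1C (0.0777), day3C (0.114), day7C (0.113) or day3CL (0.0857).

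*Dusp1* (ENSMUSG00000024190), a phosphatase that turns off MAP kinases, lies on the minus strand of chromosome 17. GENCODE extends it from 26505590 to 26562128 through 1 long transcript, with 19 peaks, 3 of them shared with *Ergic1*, whereas the RefSeq gene with its upstream bases holds 0 peaks. Its values therefore describe the long transcript's span. White libraries had 114 to 227 CPM (median 154) and beige libraries 84.6 to 268 CPM (median 158), and beige was lower in 11 of 19 mice. The log2 fold change was 0.01 (SE 0.08, adjusted p = 0.977). The summed level of 9 immediate-early genes, a class that also answers to tissue handling, was 530 CPM ± 66.8 (SD, n = 21) in white and 630 CPM ± 125 (SD, n = 19) in beige libraries, and its part in the values of *Dusp1* and *Sgk1* was not tested.

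**Figure D1:**
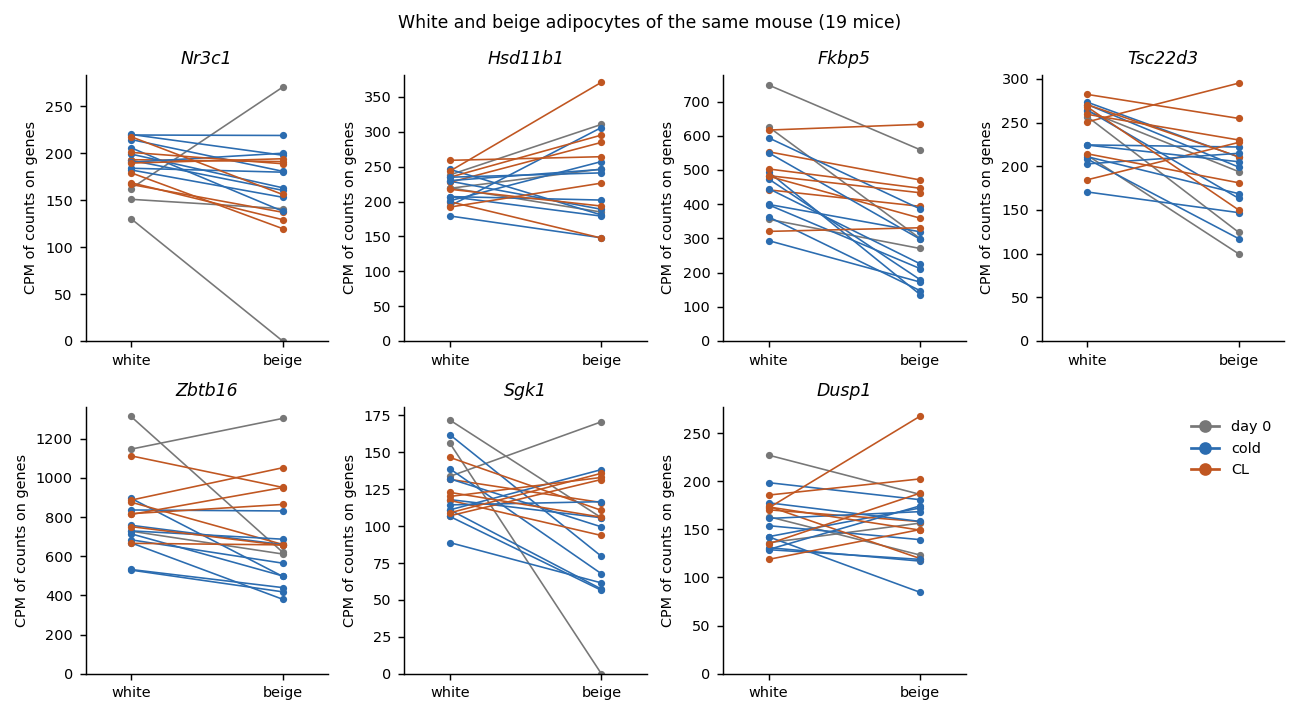
CPM of each of the 7 genes (vertical axes) in the white and beige cluster of 19 mice, with 1 line per mouse coloured by stimulus (grey day 0, blue cold, orange CL). The lines of *Fkbp5* fall from white to beige in 17 of 19 mice and most steeply in the cold, while those of *Hsd11b1* fall in 8.

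Single peaks showed where these differences sat. Of the 200 peaks, 49 had enough counts to test, and 15 passed the threshold, 2 higher and 13 lower in beige, where 26.9% of all 24854 peaks tested passed (3230 higher and 3464 lower in beige). *Fkbp5* had 6 of 10 tested peaks lower in beige and none higher, and *Zbtb16* had 5 of 19 lower and 1 higher. *Tsc22d3* had 2 of 5 lower, *Hsd11b1* had 1 of 4 higher, and none of 4 *Nr3c1*, 2 *Sgk1* and 5 *Dusp1* peaks passed. Without the filter on low counts, which raises the number of peaks tested, 87 of the 200 passed, beside 44231 of all 189546 peaks.

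In *Fkbp5*, the peak with the smallest p was the intronic chr17:28420076-28420881, which holds one of the strict elements printed above. It had 26.6 CPM ± 10.9 (SD, n = 21) in white and 15.4 CPM ± 14.1 (SD, n = 19) in beige libraries, a log2 fold change of −0.97 (SE 0.17, adjusted p = 4.59e-07), and was open in 11.7% of white and 6.74% of beige nuclei. The peak over the upstream gene start, chr17:28517424-28518494, fell from 28.6 CPM ± 11.1 to 17.2 CPM ± 14.6 (log2 fold change −0.86, SE 0.17, adjusted p = 5.19e-06). The intronic peak chr17:28438307-28439615 had 23.8 CPM ± 8.16 and 17.3 CPM ± 13.7 (−0.66, SE 0.17, adjusted p = 0.000849). Both of these hold a relaxed element printed above. The peak over the RefSeq start, chr17:28484836-28486632, was the most widely open of the gene in white adipocytes (16.6% of white and 15.2% of beige nuclei) and did not pass (−0.27, SE 0.12, adjusted p = 0.0896). It holds a relaxed element too, at chr17:28484953-28484965. The strict element of *Sgk1* lies in chr10:21993030-21993757, which was not among the peaks that passed. No value is given here for the peak of the other strict *Fkbp5* element, chr17:28442257-28443246. Whether peaks with an element differed more often than peaks without one was not tested.

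In *Zbtb16*, the strongest differences were in introns far from the start. The peak chr9:48669741-48670765, which holds no match of the relaxed form, had 21.7 CPM ± 9.25 in white and 13.5 CPM ± 8.59 in beige libraries (log2 fold change −1.09, SE 0.19, adjusted p = 2.61e-07). The peak chr9:48736339-48736711, with the relaxed element printed above, had 17.0 CPM ± 7.46 and 6.04 CPM ± 8.16 (−1.01, SE 0.22, adjusted p = 9.5e-05). Near the gene start, chr9:48834115-48835396 (−0.60, SE 0.16, adjusted p = 0.00118) and the start peak chr9:48835544-48836698 (−0.44, SE 0.13, adjusted p = 0.00551) were lower in beige too. One intronic peak, chr9:48707026-48708010, went the other way, with 20.2 CPM ± 8.43 in white and 28.8 CPM ± 15.2 in beige libraries (0.43, SE 0.14, adjusted p = 0.0135).

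The 2 *Tsc22d3* peaks that passed were both intronic, chrX:140590964-140591578 (−0.75, SE 0.20, adjusted p = 0.00172) and chrX:140598667-140599857 (−0.43, SE 0.17, adjusted p = 0.0436). Its start peak, chrX:140600419-140601096, had 10.8 CPM ± 4.19 in white and 10.5 CPM ± 11.4 in beige libraries and was too low to test. In the *Hsd11b1* region, where the sum over all peaks did not pass, the intronic peak chr1:193251310-193251902 was open in 4.85% of white and 11.2% of beige nuclei. It rose from 10.5 CPM ± 4.76 to 33.6 CPM ± 20.8, with a log2 fold change of 1.06 (SE 0.18, adjusted p = 1.68e-07), and was the largest rise among the tested peaks of the 7 genes. The *Sgk1* start peak chr10:21993839-21994964, which follows the printed promoter, had 38.1 CPM ± 9.63 and 29.5 CPM ± 15.3 (−0.23, SE 0.13, adjusted p = 0.191). It lies inside the gene, whose outermost GENCODE start is at 21882184.

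**Figure D2:**
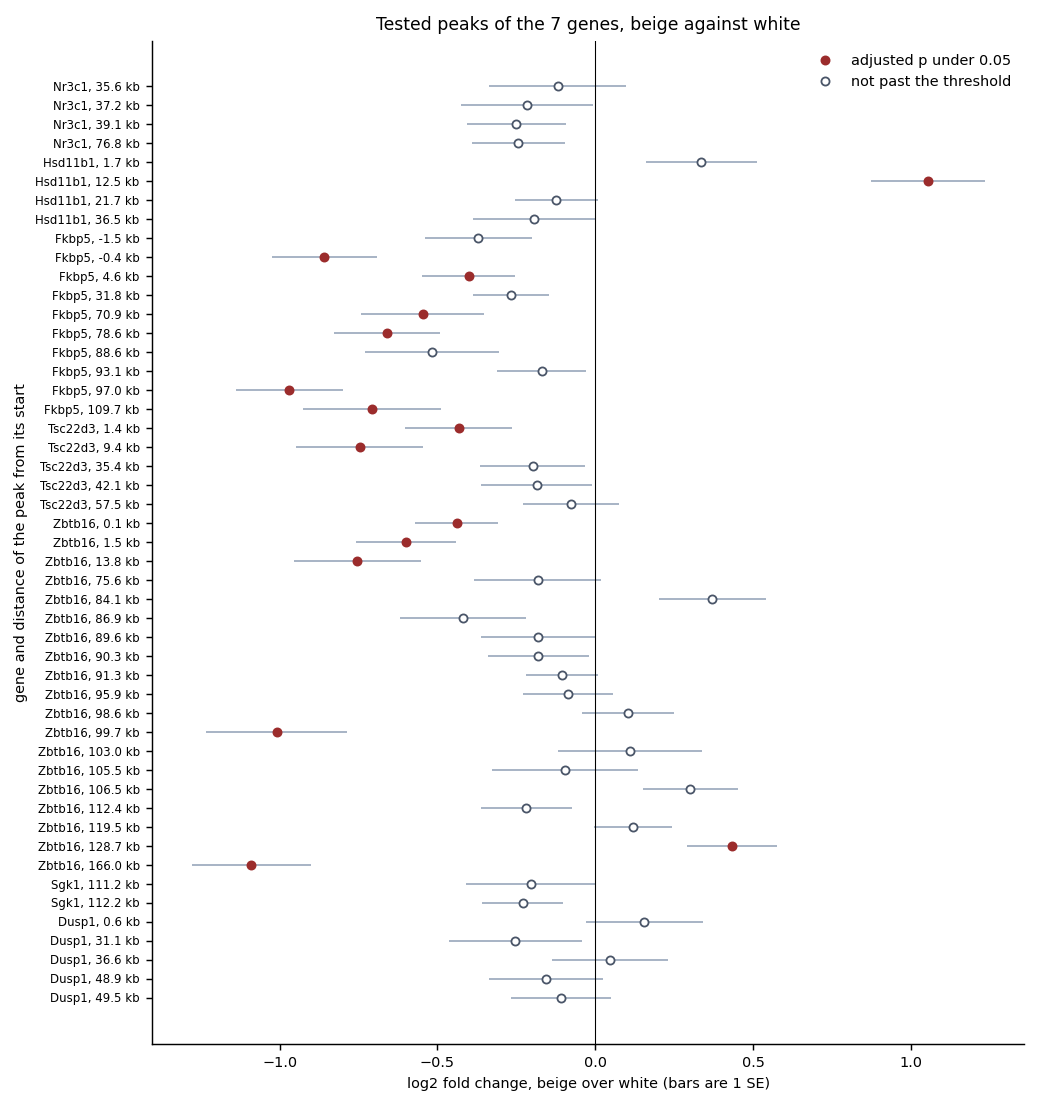
Log2 fold change of beige over white (horizontal axis) for each of the 49 tested peaks of the 7 genes, labelled by gene and distance from the gene start, with bars of 1 SE. Filled points mark an adjusted p under 0.05, and 13 of the 15 filled points lie below 0, of which 6 belong to *Fkbp5*.

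The next question was whether the gap between beige and white adipocytes was alike under both stimuli. Of the 7 genes only *Fkbp5* passed the test of this difference, where 1.66% of 12891 genes did. In the cold, beige libraries had 136 to 386 CPM (median 211.5, n = 9) against 293 to 594 CPM in white (median 446, n = 9), and beige was lower in 9 of 9 mice. Under CL, beige libraries had 331 to 633 CPM (median 433, n = 7) against 145 to 617 CPM in white (median 482, n = 9), and beige was lower in 5 of 7 mice. The 145 CPM came from day1CL replicate 1, with 5 counts in 23 nuclei and no usable beige library. The within-mouse log2 ratio of beige over white ranged from −1.87 to −0.32 in the cold (median −0.91) and from −0.42 to 0.05 under CL (median −0.17), with −1.06, −0.42 and −0.40 in the 3 day0RT mice. The ranges of cold and CL overlapped in 1 cold mouse, day3C replicate 3.

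The difference between the stimuli in the *Fkbp5* gap was 0.84 on the log2 scale (CL minus cold, SE 0.15, adjusted p = 0.000208). It passed without any one mouse (adjusted p from 2.73e-05 to 0.00186) and under the other alternatives tried, except that with the peaks near the gene start alone the value was 0.95 with an adjusted p of 0.123. The other 6 genes had differences from 0.04 for *Nr3c1* to 0.33 for *Sgk1*, and *Zbtb16* (0.30, SE 0.13) had an adjusted p of 0.306. The summed level of the 3 beige markers moved with the stimulus too, with 298 to 478 CPM in cold (median 365) and 214 to 304 CPM in CL (median 262) beige libraries. The summed B cell markers in the same libraries were 53.7 to 159 CPM in cold and 80.8 to 149 CPM in CL, against 1318 CPM ± 85.0 (SD, n = 21) in B cells. The summed smooth muscle markers, highest in APC2 for 3 of the 4 genes, were 97.5 to 268 CPM in cold (median 158) and 181 to 259 CPM in CL (median 200), and the summed endothelial markers were 99.0 to 203 CPM (median 138.5) and 83.0 to 137 CPM (median 97.0). The part of these marker lists in the *Fkbp5* difference was not tested.

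Within white adipocytes, the treated groups were compared with day 0. In the cold (days 1, 3 and 7 together), 2 of the 7 genes passed, where 1.27% of 13508 genes did: *Zbtb16* fell and *Nr3c1* rose. Under CL, 0 of the 7 passed in edgeR, where 5.83% of genes did, although 4 had an unadjusted p under 0.05 (*Zbtb16*, *Sgk1*, *Fkbp5* and *Nr3c1*), and DESeq2 called 0 as well. Between CL and cold, which share no mice, 1 of 7 passed, *Zbtb16*, where 3.42% of genes did. All contrasts with day 0 share its 3 mice.

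*Zbtb16* had 728, 1314 and 1147 CPM in the white libraries of day0RT. The 9 cold libraries had 529.5 to 896 CPM (median 715), and the 9 CL libraries 464 to 1113 CPM (median 817). The 464 CPM came from day1CL replicate 1, with 16 counts in 23 nuclei. Both remaining day0RT mice lay above every cold mouse, whereas day0RT replicate 1 lay among them. The log2 fold change in cold was −0.57 (SE 0.11, adjusted p = 0.000785), that in CL was −0.30 (SE 0.11, adjusted p = 0.0859), and CL exceeded cold by 0.28 (SE 0.08, adjusted p = 0.0257). Of its 59 peaks, 56 had a lower mean level in cold than in day 0, beside 139 of the 200 peaks of the 7 genes, which include these 56. No share over all peaks is given here, so the count cannot be judged against the series. The peaks add up to the value of the gene in the same mice, so they are not a separate test of it. The cold call was lost without day0RT replicate 2 (−0.43, adjusted p = 0.0793) or replicate 3 (−0.49, adjusted p = 0.0686), and in DESeq2 (−0.60, adjusted p = 0.172). The call between CL and cold was lost without any one of 7 mice, day1C replicates 1 and 2, day7C replicate 1, day1CL replicates 2 and 3, day3CL replicate 2 and day7CL replicate 1, with adjusted p from 0.0701 to 0.269. The fall under CL passed without day0RT replicate 1 (−0.51, adjusted p = 0.00466) or day3CL replicate 2 (−0.37, adjusted p = 0.0251).

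*Nr3c1* had 130, 151 and 162 CPM in the white libraries of day0RT, 182 to 220 CPM in cold (median 199, n = 9) and 167 to 290 CPM under CL (median 190, n = 9). No treated mouse overlapped the 3 day0RT mice, but how many of all genes part in this way was not counted. The highest value came from day1CL replicate 1, a library of 23 nuclei. The test for any difference among the groups did not pass (adjusted p = 0.1004). The log2 fold change was 0.42 in cold (SE 0.12, adjusted p = 0.0477) and 0.31 under CL (SE 0.12, adjusted p = 0.113). Of the 23 *Nr3c1* peaks, 19 had a higher mean level in cold than in day 0. Over all the named genes together 61 of 200 peaks did so, which include these 19. No share over all peaks of the series is given here, so the count cannot be judged against it. The *Nr3c1* peaks add up to the value of the gene in the same mice, so they are not a separate test of it. The cold call lay close to the threshold: it was lost in 17 of 21 refits that left out 1 mouse each, with the highest adjusted p (0.2545) without day0RT replicate 3, and it held without day1C replicate 1, day3C replicate 1, day1CL replicate 1 or day7CL replicate 3. DESeq2 gave 0.41 (adjusted p = 0.0897).

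Taken day by day, *Zbtb16* passed on each day of cold, with −0.58 on day 1 (SE 0.13, adjusted p = 0.0245, where 0.229% of genes passed), −0.55 on day 3 (SE 0.13, adjusted p = 0.0111, 1.11% of genes) and −0.58 on day 7 (SE 0.13, adjusted p = 0.00754, 1.89% of genes). On day 7 of cold *Sgk1* passed as well (−0.57, SE 0.16, adjusted p = 0.0352). Its white libraries had 133.7, 156 and 172 CPM in day0RT and 88.9, 107 and 114 CPM in day7C. That *Sgk1* call was lost without day0RT replicate 2 (adjusted p = 0.0834) or 3 (0.299) and without day7C replicate 1 (0.105) or 2 (0.149). On day 7 of CL, *Zbtb16* (−0.39, SE 0.13, adjusted p = 0.0452) and *Nr3c1* (0.44, SE 0.13, adjusted p = 0.0288) passed, where 6.76% of genes did. On day 1 and day 3 of CL 0 of the 7 passed in edgeR and in DESeq2, with 2 genes each under an unadjusted p of 0.05, where 1.93% and 4.36% of genes passed. The day-by-day calls of *Zbtb16* were lost without day0RT replicate 2 (adjusted p from 0.132 to 0.342) and without day0RT replicate 3 (0.0863 to 0.362). On single days they were lost too without day1C replicate 1 (0.142) or 2 (0.237) for day 1 of cold, without day7C replicate 1 (0.162) for day 7 of cold, and without day7C replicate 2 (0.0519) or day7CL replicate 1 (0.171), 2 (0.0704) or 3 (0.102) for day 7 of CL. The *Nr3c1* call on day 7 of CL was lost without any one day0RT mouse (0.0514 to 0.137) and without day7CL replicate 1 (0.174) or 3 (0.0532).

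*Fkbp5* had a wide spread in white adipocytes, with 356, 626 and 748 CPM in day0RT (lowest, median and highest) and 293, 398 and 474 CPM in day1C. It passed the test for any difference among the 7 groups (adjusted p = 0.0164), as did *Zbtb16* (adjusted p = 0.0016), where 10.9% of genes passed. The *Fkbp5* call was lost without day0RT replicate 2 (adjusted p = 0.0539), day1C replicate 2 (0.0634) or day3CL replicate 2 (0.0683). *Fkbp5* against day 0 was −0.35 in cold (SE 0.12, adjusted p = 0.1265) and −0.25 under CL (SE 0.12, adjusted p = 0.215), and without day0RT replicate 1, its lowest day 0 library, it passed in both, with −0.60 (adjusted p = 0.00347) and −0.50 (adjusted p = 0.0111), and so it did in day1C (−0.77, adjusted p = 0.00178), day3C (−0.60, 0.0218), day1CL (−0.67, 0.0148) and day7CL (−0.58, 0.00839). When white and beige nuclei were summed, *Fkbp5* (−0.45, adjusted p = 0.0317) and *Sgk1* (−0.43, adjusted p = 0.0331) passed in cold and *Nr3c1* (0.35, adjusted p = 0.0771) no longer did.

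*Tsc22d3*, *Hsd11b1* and *Dusp1* passed in none of these contrasts. *Tsc22d3* had 212.5 to 263 CPM in day0RT, 171 to 273 CPM in cold and 185 to 290 CPM under CL. *Hsd11b1* had 219 to 238 CPM in day0RT, 179 to 246 CPM in cold and 159 to 259 CPM under CL. The immediate-early sum in white libraries was 527 to 723 CPM in day0RT, 438 to 626 CPM in cold and 464 to 599 CPM under CL, and the B cell marker sum was 115 to 162, 81.0 to 145 and 58.0 to 155 CPM. The beige marker sum in white libraries was 96.8 to 147 CPM in day0RT (mean 123 ± 25.2, SD, n = 3), 123 to 210 CPM in cold (157 ± 23.5, n = 9) and 133.5 to 232 CPM under CL (181 ± 31.3, n = 9), and the smooth muscle marker sum was 138 to 151, 119 to 188 and 145 to 210 CPM. Their part in the group differences was not tested.

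**Figure D3:**
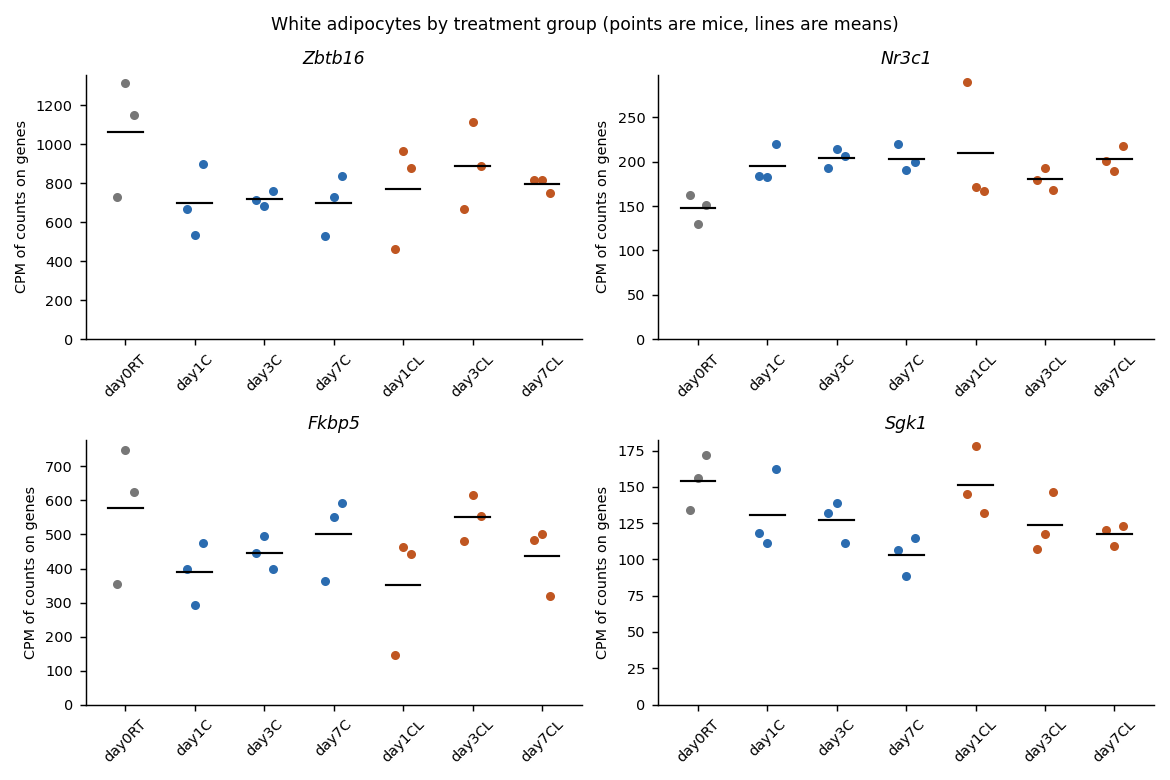
CPM of *Zbtb16*, *Nr3c1*, *Fkbp5* and *Sgk1* in white adipocytes (vertical axes) for the 7 groups (horizontal axes), with 1 point per mouse and a line at each group mean of 3 mice. All *Nr3c1* points of the treated groups lie above the day0RT points, but how many of all genes part in this way was not counted. The day0RT group holds the 2 highest *Zbtb16* points. The edgeR test for any difference among the 7 groups did not pass for *Nr3c1* (adjusted p = 0.1004).

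Across the 12 clusters the 7 genes differed in where they were most open. These levels are a description, because the clusters were made from the same nuclei, and neighbours in the order were held apart only where their means differed by more than the root of their summed variances. Per kb of peak, the mean level in white adipocytes was 31.0 CPM for *Zbtb16*, 22.5 for *Fkbp5*, 22.1 for *Hsd11b1*, 21.3 for *Tsc22d3*, 17.9 for *Nr3c1*, 15.4 for *Dusp1* and 9.46 for *Sgk1*.

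*Nr3c1* was highest in white adipocytes (192 CPM ± 32.4, SD, n = 21), followed by B cells (178 CPM ± 24.3) and beige adipocytes (164 CPM ± 53.6, n = 19), and lowest in VEC, the endothelial cluster (37.6 CPM ± 46.5, n = 15). None of its 11 neighbour pairs in the order were apart beyond their spread. *Hsd11b1* was highest in beige (235.5 CPM ± 60.5) and white adipocytes (216 CPM ± 24.2) and lowest in the cluster annotated VSMC (47.8 CPM ± 36.4, n = 10). The white cluster stood above the next, Cd4 T cells (163 CPM ± 37.4, n = 20).

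*Fkbp5* ranged from 675.5 CPM ± 161.5 (SD, n = 10) in the cluster annotated VSMC, through APC2 (606 CPM), APC1 (557 CPM), both annotated as adipocyte progenitors, and white adipocytes (464 CPM), to 237 CPM ± 79.2 (n = 17) in dendritic cells. No neighbours were apart. *Tsc22d3* was highest in the cluster annotated VSMC (319 CPM ± 52.3), which stood above white adipocytes (240 CPM ± 33.9), and lowest in the Tcell cluster (109 CPM ± 35.6, n = 20). With TMM factors over all libraries, *Hsd11b1* and *Tsc22d3* were highest in white adipocytes and *Fkbp5* in APC2.

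*Zbtb16* showed the widest range, 52.9-fold between the cluster annotated VSMC (1222 CPM ± 306) and B cells (23.1 CPM ± 32.1, n = 21). It fell into a set of 6 high clusters, which were VSMC, APC1 (913.5 CPM), white (805 CPM), VEC (721 CPM), beige (700.5 CPM) and APC2 (655 CPM), and a set of 6 low ones led by dendritic cells (209 CPM), and APC2 and dendritic cells were apart beyond their spread. *Sgk1* was highest in Cd8 (519 CPM ± 66.8, n = 20) and Cd4 T cells (449 CPM ± 63.5), followed by the cluster annotated VSMC (367.5 CPM ± 84.9). It was lowest in white (130 CPM ± 23.4) and beige (99.3 CPM ± 38.9) adipocytes, below dendritic cells (219 CPM ± 80.4). *Dusp1* was highest in dendritic cells (340 CPM ± 111), APC1 (305.5 CPM ± 114) and macrophages (264 CPM ± 91.0) and lowest in Cd8 T cells (39.0 CPM ± 11.4).

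**Figure D4:**
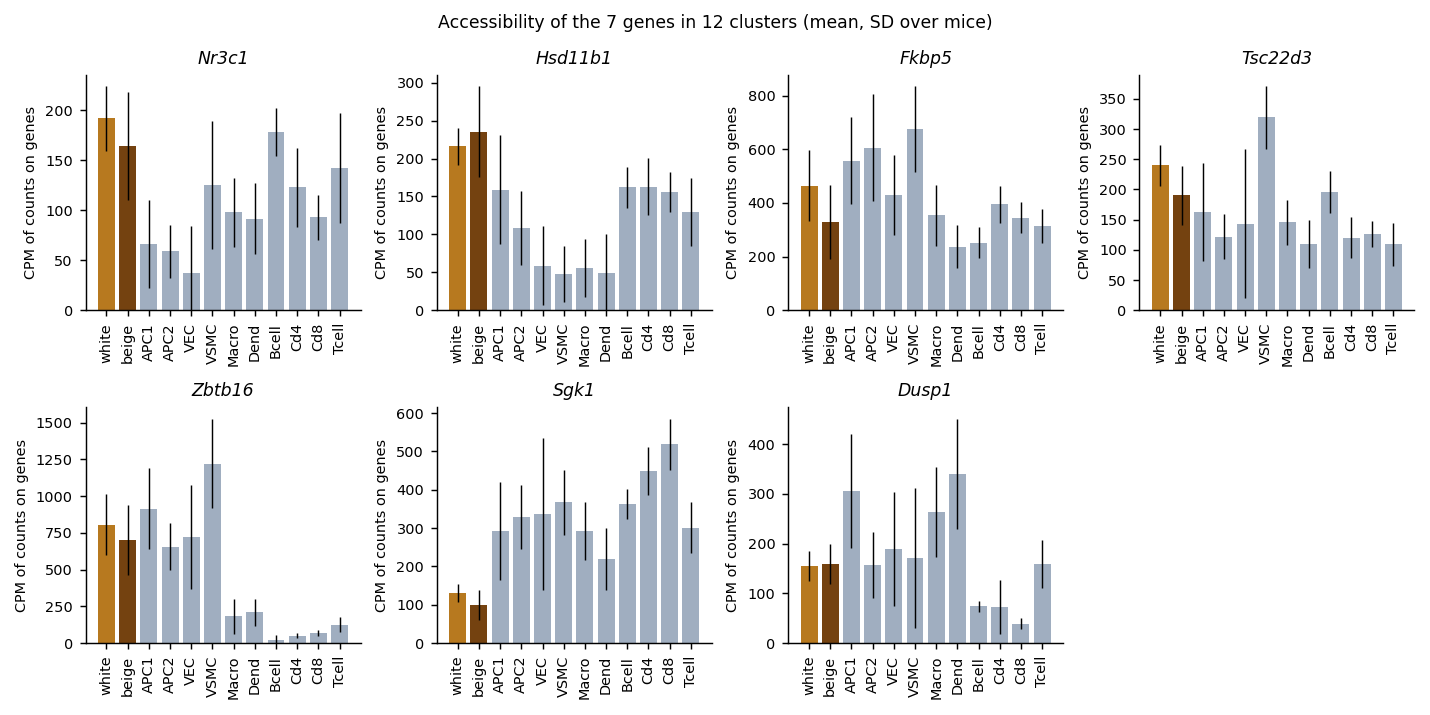
Mean CPM of each of the 7 genes (vertical axes) in the 12 clusters (horizontal axes), with error bars of 1 SD over 10 to 21 mice and the white and beige adipocytes coloured. *Zbtb16* is high in white, beige, APC1, APC2, VEC and the cluster annotated VSMC and low in the immune clusters, and *Sgk1* is lowest in the adipocytes.

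Similar sums could come from different peaks. At *Nr3c1*, the peak over the gene start, chr18:39518869-39520623, was open in 10.2% of B cell nuclei but in 1.26% of white and 1.40% of beige nuclei, although B cell nuclei were shallower (median 974 counts against 2561 and 3087). White adipocytes opened intronic peaks instead, such as chr18:39442142-39443153, with 10.2% of white and 0.368% of B cell nuclei. *Hsd11b1* showed the same split: the start peak chr1:193263781-193264612 was open in 11.1% of Cd8 and 2.66% of white nuclei, whereas chr1:193241897-193242824, over the start of another transcript, was open in 12.7% of white and 0.269% of Cd8 nuclei.

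At *Sgk1*, the start peak downstream of the printed element was open in 8.3% to 20.8% of the nuclei of every cluster. Of its 23 peaks, 10 were highest in lymphocytes, 7 in clusters annotated as vascular, 3 in myeloid and 3 in stromal clusters, and 0 in adipocytes. No share over all peaks of the series is given here, so this split cannot be judged against it. The lymphocyte peaks upstream of this start included chr10:21907832-21909101, open in 10.4% of Cd8 and 0.843% of white nuclei. At *Dusp1*, chr17:26512408-26512902 was open in 8.997% of white and 9.17% of beige nuclei, and chr17:26533756-26534394 in 9.9% of dendritic and 1.045% of white nuclei.

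**Figure D5:**
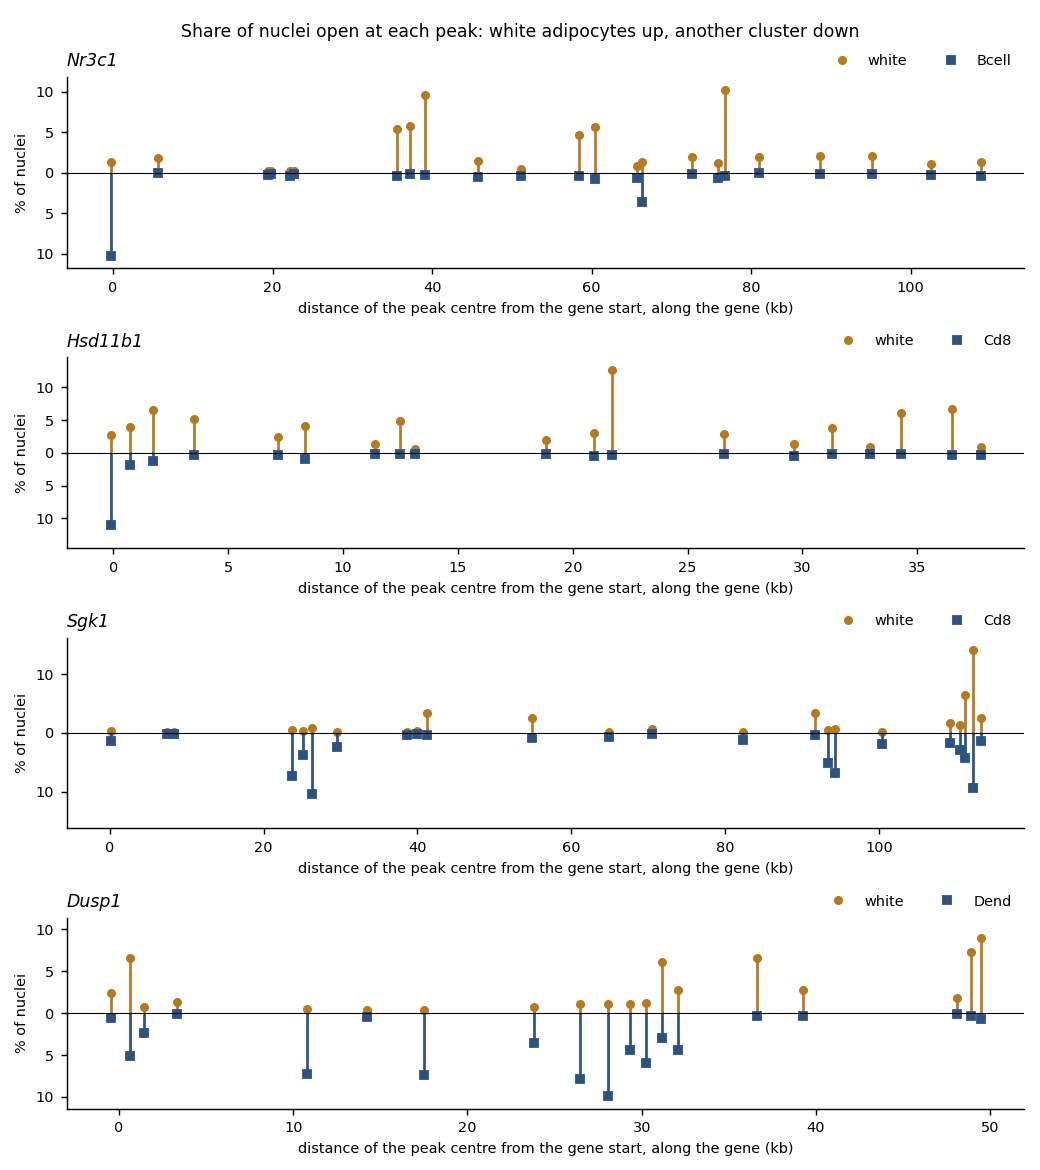
Share of nuclei in which each peak is open (vertical axes, percent) against the distance of the peak's centre from the gene start (horizontal axes, kb), with white adipocytes drawn upwards and B, Cd8 or dendritic cells downwards. At the starts of *Nr3c1* and *Hsd11b1* the lymphocyte bars reach 10.2% and 11.1% while the white bars stay at 1.26% and 2.66%.

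Outside the adipocytes, differences among the 7 groups were tested in 7 further clusters, those with at least 2 libraries in every group. In B cells 1 of the 7 genes passed, *Nr3c1* (adjusted p = 0.00892), where 2.08% of genes did. Its B cell libraries had 125, 150 and 165 CPM in day3C and 137, 161 and 164 CPM in day1CL, the lowest groups, and 187, 211 and 221 CPM in day7CL and 196, 198 and 199 CPM in day7C, the highest. The highest and lowest groups were picked as such from these same values, so their lack of overlap is not a separate result. How many of all genes part in this way was not counted, and the test itself gives no direction. The call was lost without day3C replicate 3 (adjusted p = 0.16). *Fkbp5* missed the threshold in B cells (adjusted p = 0.146) and passed it without day0RT, day3CL, day7C or day7CL replicate 1 (0.0253 to 0.0394).

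In the other 6 clusters edgeR called 0 of the genes tested, namely 6 in APC1, 4 in APC2, 6 in macrophages and 7 in Cd4, Cd8 and Tcell each, and DESeq2 was not run there. At an unadjusted p under 0.05 there were 2 genes in APC1, 1 in macrophages, 1 in Cd4, 1 in Tcell and 0 in APC2 and Cd8. Among all genes, the shares called were 0% in APC1 and macrophages, 0.0991% in APC2, 0.0624% in Cd4, 0.125% in Cd8 and 0.0172% in Tcell. *Zbtb16* in macrophages had the smallest unadjusted p of these (0.000265, adjusted 0.186). Dendritic cells, VEC, the cluster annotated VSMC and beige adipocytes had too few libraries in some group to be tested.

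Other genes of the pathway were read from 2 lists, drawn up with earlier results of these data known. Of 20 further genes known to answer to glucocorticoids, 17 could be tested between beige and white adipocytes, and 5 passed, 1 higher and 4 lower in beige, with a median log2 fold change of −0.12 over the 17, beside the 28.8% called and the median of 0.01 among all genes. *Hif3a*, a repressor of the hypoxia response, had the largest fall (−1.19, SE 0.14, adjusted p = 3.24e-12), from 62.1 CPM ± 14.7 in white to 27.4 CPM ± 15.3 in beige libraries. The adipogenic factor *Cebpd* (−0.86, SE 0.11, adjusted p = 1.61e-10) and the mRNA decay factor *Zfp36* (−0.30, SE 0.09, adjusted p = 0.00831) fell as well, and *Pdk4*, a kinase that slows glucose oxidation, rose by 0.69 (SE 0.09, adjusted p = 1.1e-10).

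In white adipocytes, the same list had 1 of 18 genes lower in cold and 3 of 18 lower under CL than in day 0, and none higher, beside 1.27% and 5.83% of all genes called in either direction. *Angptl4*, an inhibitor of lipoprotein lipase, had 161 to 246 CPM in day0RT, 83.2 to 216 CPM in cold and 77.6 to 169 CPM under CL. Its log2 fold change was −0.72 in cold (SE 0.14, adjusted p = 0.00174) and −0.82 under CL (SE 0.15, adjusted p = 7.96e-05). *Pck1*, an enzyme of glyceroneogenesis (−0.68, SE 0.14, adjusted p = 0.000848), and *Zfp36* (−0.59, SE 0.13, adjusted p = 0.00194) passed under CL. Between CL and cold, *Lpin1*, a phosphatidate phosphatase, was higher (0.26, SE 0.07, adjusted p = 0.012) and *Pck1* lower (−0.32, SE 0.10, adjusted p = 0.0399) under CL.

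The second list held 21 genes of the receptor's machinery, namely the related mineralocorticoid receptor, steroid enzymes, chaperones and coregulators. Of 16 tested between beige and white, 3 passed, among them the chaperone *Hspa8*, which was higher in beige (0.25, SE 0.10, adjusted p = 0.0379), and the coactivator *Ncoa2*, which was lower (−0.19, SE 0.07, adjusted p = 0.0212), beside 28.8% of all genes. In white adipocytes edgeR called 0 of 17 in cold and 1 of 17 under CL, *Ncoa2* (0.33, SE 0.10, adjusted p = 0.0418), beside 1.27% and 5.83% of all genes.

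The genes whose levels followed each of the 7 most closely over the 12 clusters were named by Pearson's r of log2(mean CPM + 1) among 15016 genes, and the points share depth and libraries. They were *Hibadh* (0.91) and *Crls1* (0.90) for *Nr3c1*, *Pafah1b1* (0.92) and *Sox5* (0.90) for *Hsd11b1*, and *F830016B08Rik* (0.94) and *Epha3* (0.92) for *Fkbp5*. For *Tsc22d3* they were *Slc25a26* (0.93) and *Mc5r* (0.92), for *Zbtb16* *Dst* (0.99) and *Nrep* (0.98), for *Sgk1* *Shf* (0.94) and *Trim28* (0.93), and for *Dusp1* *Nbl1* (0.95) and *Rhpn1* (0.93). These partners were picked as the highest among 15016 genes over only 12 points. How high such a pick reaches without any link was not worked out. Among the 7 themselves the closest pair was *Fkbp5* and *Zbtb16* (0.70).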

How the data were processed

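Nuclei of 21 mice were profiled by snATAC-seq. Per the study's methods, the authors merged 2 sequencing runs, aligned reads to mm10 with Bowtie2, removed duplicates within barcodes and mitochondrial reads, called peaks with MACS2, removed likely doublets and clustered the nuclei with Signac (no versions in the submitters' processing notes). The counts deposited by the authors form a matrix of 189598 peaks by 32552 nuclei holding only 0 and 1, so reads beyond the first in a peak and nucleus were not counted, which compresses differences in deeply read nuclei. The 4 deposited samples are pooled lanes, and each nucleus took its mouse, group and cluster from the deposited annotation.

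Counts were summed per gene (GENCODE M21 extent plus 2000 bases upstream), mouse and cluster, keeping 223 libraries of at least 10 nuclei. Counts per mouse ran from 1340376 to 6916698. Tests were two-sided edgeR quasi-likelihood tests (edgeR 4.0.16, R 4.3.3, TMM, filterByExpr with a minimum count of 10), with Benjamini-Hochberg adjustment over all genes of a comparison and a threshold of 0.05. The SE is the log2 fold change divided by the root of the F value and is approximate. White and beige libraries of 1 mouse come from the same animal, but the main fit had no term for the mouse. Their deviations from the group means correlated little (r from −0.007 to 0.134). Counting noise in small libraries lowers such an r too, so it cannot show that the pairing has no effect. The mouse was used as a block in an alternative. DESeq2 1.42.0, other filters, extents and depths, and leaving out each mouse were alternatives too. On simulated counts with 200 changed genes, the test of beige against white recovered 77.2% of changes of 1.5-fold and 97.9% of changes of 2-fold among 12770 genes, and that of cold against day 0 recovered 34.5% and 81.8% among 13508 genes. The share of false calls was 6.3% at 1.5-fold and 3.6% at 2-fold for beige against white, and 2.9% and 4.7% for cold against day 0.

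All 7 genes were named in every comparison. Peaks that passed were named, or the 3 of smallest p in each direction, with the start peaks, and genes of the lists by the 3 largest changes in each direction over all days, except 1 gene that is not reported here. The 7 genes and the lists were chosen with earlier results of these data known. Other peaks named by cluster were chosen after their values were seen.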

Additional observations from a re-analysis of the deposited data

Results flagged for a closer look

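The gap in *Fkbp5* accessibility between beige and white adipocytes differed between the stimuli, by 0.84 on the log2 scale (CL minus cold, SE 0.15, edgeR quasi-likelihood test with Benjamini-Hochberg adjustment, adjusted p = 0.000208). It is listed because the interaction of cluster and stimulus passed its test. Beige was lower than white in 9 of 9 mice in the cold and in 5 of 7 under CL. With the mouse as a block the value was 0.81 (adjusted p = 2.27e-08).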

How the results depend on the processing

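No called value reversed its sign under any alternative, and of 2382 refitted fold changes 75 differed in sign from the reported one, all of them uncalled. Refits leaving out 1 mouse kept 1796 of the values of single genes on their side of the threshold, with 14 gained and 66 lost. They called 2 to 5 of the 7 genes in beige against white (4 with all mice), 0 to 2 in cold against day 0 (2), 0 to 2 in CL against day 0 (0), 0 to 1 in CL against cold (1), 0 to 2 each in day1C (1), day3C (1), day7C (2) and day7CL (2), 0 to 1 in day1CL (0), 1 to 2 for any difference in white (2), 0 to 2 in B cells (1) and 1 in all 16 refits of the stimulus difference (1).

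DESeq2 called 0 of the 7 in cold, CL against cold, day1C, day3C, day7C and day7CL. Peaks near the gene start alone gave 2 in beige against white and 0 in cold, CL against cold, day1C, day3C, day7C, day7CL, any difference in white and the stimulus difference, and *Nr3c1* and *Sgk1* then had too few counts for a value. Without a filter on low counts there was 1 in cold, 2 in day1C, 2 for any difference in B cells and 87 single peaks in place of 15. Nuclei with at least 2000 counts gave 2 in beige against white, 0 in day1C, 2 in day3C and 1 in day7CL. The region with 10000 bases upstream gave 2 in day3C, white and beige summed gave 1 in day7CL, and beige against white without group day1C or day3C gave 2. Libraries of at least 30 nuclei gave 3 in beige against white, without *Zbtb16* and *Sgk1* and with *Nr3c1* (adjusted p = 0.0498). TMM over all libraries kept the highest cluster of 4 of the 7 genes, and the strict element left 3 of the 19 peaks with a match. The replicate number as a block gave 1 in cold, 1 in CL against day 0 and 1 in day7CL. White libraries of one number had a median r from −0.003 to 0.005 between their deviations from the group means. Counting noise lowers such an r, so it cannot show that the number has no effect. The study's reporting summary describes 3 independent batches, and the labels do not say whether the replicate number marks them. The mouse as a block changed the call of *Nr3c1* in beige against white (adjusted p = 0.0472) and no other call of the 7. The causes of these changes were not tested, beyond fewer peaks, nuclei or mice entering a fit.

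Counts over all genes moved more than 1.5 times under several alternatives. Leaving out 1 mouse gave 30 to 198 in cold (172 with all mice), 319 to 876 in CL (787), 11 to 525 in CL against cold (462), 0 to 54 in day1C (31), 61 to 163 in day3C (150), 73 to 265 in day7C (255), 4 to 286 in day1CL (261), 182 to 617 in day3CL (589), 123 to 1031 in day7CL (913), 157 to 318 for any difference in B cells (239) and 108 to 238 for the stimulus difference (214). DESeq2 called 70 in cold, 236 in CL, 54 in CL against cold, 5 in day1C, 34 in day3C, 76 in day7C, 63 in day1CL, 135 in day3CL and 151 in day7CL. Peaks near the start called 1093 in beige against white (3674 with all peaks), 17 in cold, 100 in CL, 46 in CL against cold, 0 in day1C, 27 in day3C, 27 in day7C, 28 in day1CL, 98 in day3CL, 65 in day7CL, 273 for any difference in white (1468) and 21 for the stimulus difference. No filter called 51 in day1C, 44231 single peaks (6694 with it), and 3 in Cd4 (6), 8 in Cd8 (13), 1 in APC2 (2), 3 in macrophages (0) and 3 in Tcell (1). Deep nuclei called 513 in CL, 12 in day1C and 141 in day1CL, white and beige summed 336 in cold, 49 in day1C, 241 in day3C and 734 in day7C, the replicate number as a block 0 in APC2 and 2 in Tcell, and the stimulus difference without day3C, day3CL, day7C or day7CL 48, 99, 133 and 102.

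Depth limits these results: beige libraries held as few as 12 nuclei. Within a cluster, p-values rest on the spread between mice inside groups of at most 3, taken over all groups together. In beige against white and in the stimulus difference, the main fit treated the white and beige library of the same mouse as independent. The spread there was that between libraries of both clusters.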
